A study of Mus musculus with 28 samples.

Results

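Newborn microglia, collected on the day of birth (P0), were compared with microglia of E16.5 embryos over all genes, as the summed change across late gestation and birth. The comparison took 6 arrays, 3 of P0 and 3 of E16.5, out of 28 samples of yolk sac macrophages and microglia that form 25 distinct arrays, and it covered 10630 genes that passed a detection filter. Both groups were microglia of mouse brain, of a strain that the labels spell C56BL/6, marked WT in the deposited tables and with no treatment in the labels. The sort took cells that were F4/80+, CD64+, CD11b+ and Ly6C- with CD45low staining. Each array held RNA of cells from several female and male brains, so a replicate is a pool. By the study's methods newborn tissue was digested with collagenase for longer than embryonic tissue, so stage and digestion time cannot be told apart in P0 against E16.5. The 3 arrays of E18.5 microglia, digested like E16.5 tissue, are set beside both groups.

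Microglia are the macrophages of the brain. They arise in the yolk sac, enter the neural tube early in development and multiply there while neurons are born. Around birth they lie among astrocytes and cells of the oligodendrocyte lineage as well as neurons. Microglia engulf dying cells and neurites, and they answer tissue damage within minutes by transcribing immediate early, cytokine and heat shock genes, so the handling of the tissue can itself enter such measurements.

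Levels are log2 values after background correction and quantile normalization, a change is P0 minus E16.5 on that scale with its standard error after ±, and a gene was called at an adjusted p under 0.05 (limma, Benjamini-Hochberg over all 10630 genes). The words rose and fell are kept for called genes. Between 16155 and 16966 probes were detected on the E16.5 arrays and between 16339 and 17148 on the P0 arrays, with 75th percentiles of signal over background of 2.758 to 3.101 and of 2.64 to 3.484. All 10 measured markers of microglia and macrophages (Ptprc, Itgam, Csf1r, Cx3cr1, Fcgr1, Adgre1, Aif1, Tmem119, P2ry12 and Sall1) were detected on all 6 arrays, at levels from 8.26 to 15.67, and Ly6c1, which the sort selects against, did not pass the detection filter. Arrays of E16.5 correlated with each other at r = 0.989 to 0.991 and arrays of P0 at 0.976 to 0.988, against 0.968 to 0.98 between the groups. The P0 arrays therefore varied more among themselves than the E16.5 arrays did, and P0 replicate 3 stood apart from replicates 1 and 2 in several stress transcripts described below. Nothing in the labels says more than that arrays are replicates. The spread behind the p-values was estimated between pools within each group, over all 25 arrays of the 8 groups and not over these 6 alone. Among the 8 groups, the adult mice were 2 months old by the labels.

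Of the 10630 genes, 185 rose (1.74%) and 105 fell (0.988%), 2.73% in all, and 1734 had an unadjusted p under 0.05. A change of at least 2-fold was reached by 74 of the genes that rose and 52 of those that fell. The 3 values of P0 and the 3 of E16.5 did not overlap for 25.7% of all genes (14.9% with P0 above and 10.8% with P0 below), and they did not overlap for the called genes except 2. The median change of all genes was 0.02, with a median standard error of 0.20.

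The number of calls depended on single arrays. With 1 array left out, 56 genes rose and 40 fell without E16.5 replicate 1, 71 and 46 without E16.5 replicate 2, 79 and 59 without E16.5 replicate 3, 142 and 99 without P0 replicate 1, 68 and 36 without P0 replicate 2, and 151 and 198 without P0 replicate 3. A set of 63 genes, 36 higher and 27 lower at P0, was called in the full fit and again without each of the 6 arrays in turn. When only the 9 arrays of E16.5, E18.5 and P0 entered the fit, 17 genes rose and 22 fell.

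**Figure D1:**
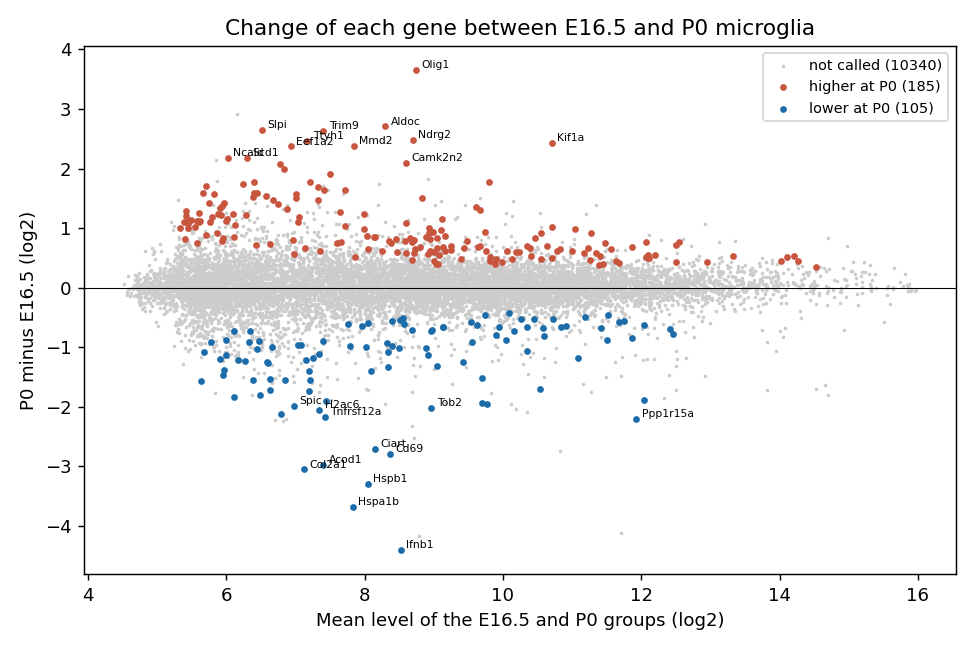
Change of each of the 10630 genes (P0 minus E16.5, log2) against the mean level of the 2 groups (log2), with the 185 genes that rose in red, the 105 that fell in blue and the 12 largest named changes of each direction labelled. Olig1 lies highest at 3.66 and Ifnb1 lowest at -4.41.

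**Figure D2:**
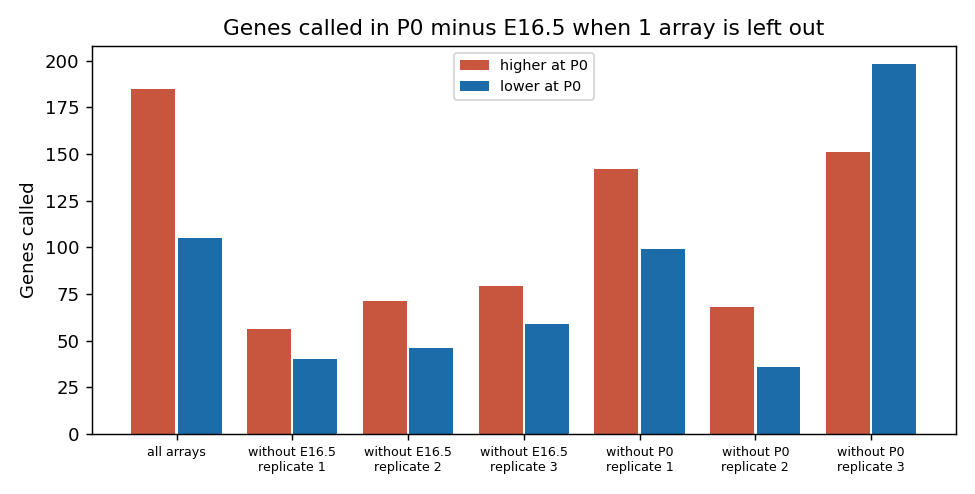
Number of genes called higher (red) and lower (blue) at P0 in the fit of all arrays and in fits that leave out 1 of the 6 arrays. Counts of genes that rose run from 56 to 151 and counts of genes that fell from 36 to 198, against 185 and 105 with all arrays.

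Several of the genes with the largest rises are known from glia or neurons. Olig1, a transcription factor of the oligodendrocyte lineage, rose most. Its level was 5.98, 7.60 and 7.17 on the E16.5 arrays and 10.53, 10.41 and 10.77 on the P0 arrays. The lowest P0 array lay far above the highest E16.5 array, a difference of 3.66 ± 0.46 (12.6-fold, adjusted p = 0.000335). Aldoc, the aldolase isoform of astrocytes, had levels of 6.63, 7.16 and 7.04 at E16.5 and of 9.66, 9.29 and 10.01 at P0 and rose by 2.71 ± 0.46 (adjusted p = 0.00386). Ndrg2, an astrocyte-enriched gene, rose by 2.48 ± 0.46 (adjusted p = 0.00595), and Ttyh1, a membrane protein of neural stem cells and astrocytes, by 2.47 ± 0.52 (adjusted p = 0.0133). Mmd2, a membrane protein of the progestin and adipoQ receptor family, rose by 2.38 ± 0.54 (adjusted p = 0.0209). By that choice the groups did not overlap in these 4 genes either, and Ttyh1 was above background on 1 of 3 E16.5 arrays. The calls of Ttyh1 and Mmd2 were lost without E16.5 replicate 1 (adjusted p = 0.053 and 0.0829), without E16.5 replicate 3 and without P0 replicate 2, and that of Mmd2 also without E16.5 replicate 2.

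Of 14 measured genes on a list of astrocyte and neural progenitor genes, 5 rose (35.7%, against 1.74% of all genes) and none fell. Besides Aldoc they were Slc1a3, a glutamate transporter of astrocytes, Aldh1l1, a folate enzyme used as an astrocyte marker, Fabp7, a lipid carrier of radial glia, and Gfap, the intermediate filament of astrocytes. Slc1a3 stood at 8.78, 8.81 and 9.16 at E16.5 and at 10.26, 10.66 and 11.13 at P0, a rise of 1.77 ± 0.41 (adjusted p = 0.025). Its groups did not overlap, but of the 6 fits without an array only the 1 without P0 replicate 1 kept the call, and without E16.5 replicate 2 the adjusted p was 0.0935. Aldh1l1 rose by 1.22 ± 0.21 (adjusted p = 0.00433), with detection on 1 of 3 E16.5 arrays, and was called in all 6 such fits. Fabp7 and Gfap were not above background on any E16.5 array and were detected on 2 of 3 P0 arrays. Fabp7 met the filter of 3 arrays only through 1 E18.5 and 2 P0 arrays, so it was tested because it was high there. The share of 35.7% includes both genes. Their levels at P0 were at least 1.07-fold higher (adjusted p = 0.00329 and 0.00436), where such a bound compares the P0 mean with the lowest level of a detected probe. The median change of the list was 0.36, with 7 members positive and 7 negative, against 0.02 for all genes. This median turned negative without P0 replicate 1 (-0.13), replicate 2 (-0.16) or replicate 3 (-0.11), with only the arrays of E16.5 and P0 (-0.15), and with a filter that required detection on all arrays of E16.5 or of P0 (-0.16). Without P0 replicates 2 and 3 the list held 2 and 3 genes that rose, with the stricter filter 3, and with only the 9 arrays of E16.5, E18.5 and P0 in the fit 0.

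On a list of 10 measured oligodendrocyte lineage genes 2 rose (1.74% of all genes did) and none fell, with a median change of 0.32. The other gene beside Olig1 was Bcas1, which marks oligodendrocytes that begin to form myelin. Bcas1 stood at 6.32, 6.23 and 6.39 at E16.5 and at 7.87, 8.17 and 8.23 at P0, and it rose by 1.78 ± 0.44 (adjusted p = 0.0317). The groups did not overlap, yet the call was lost without any 1 of the 6 arrays, with adjusted p up to 0.126. Pdgfra, the receptor of oligodendrocyte precursors, differed by 0.72 ± 0.67 (adjusted p = 0.674), and Mbp, a myelin protein, by 0.14 ± 0.18 (adjusted p = 0.793). The 2 kept probes of Mbp did not give the same value, since the dimmer one differed by 2.81.

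Several further genes among the largest rises are known from neurons. Kif1a, an axonal transport motor, had levels of 9.38, 9.64 and 9.47 at E16.5 and of 11.57, 11.90 and 12.30 at P0, a rise of 2.43 ± 0.45 (adjusted p = 0.00595). Eef1a2, an elongation factor of neurons and muscle that was above background on 1 of 3 E16.5 arrays, rose by 2.37 ± 0.39 (adjusted p = 0.0028), and Camk2n2, an inhibitor of the kinase CaMKII, by 2.09 ± 0.35 (adjusted p = 0.00331). Ncald, a neuronal calcium sensor that was not above background on the E16.5 arrays, was at least 2.40-fold higher at P0 (adjusted p = 0.000988). Trim9, a ubiquitin ligase of axons and synapses, rose by 2.63 ± 0.38 with the brighter of its kept probes (adjusted p = 0.000988), whereas its other kept probe differed by -0.71. For each of the 5 genes the call held without each array in turn, and by the rule of choice the groups did not overlap.

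A list of 22 measured neuronal genes nevertheless held no call in either direction. Its median change was -0.08, and 3 members were higher and 3 lower at an unadjusted p under 0.05. Mapt, the microtubule protein tau, had levels of 9.09, 8.90 and 8.77 at E16.5 and of 10.14, 10.15 and 10.96 at P0 (adjusted p = 0.0543) and Gap43, a protein of growing axons, differed by 1.27 ± 0.38 (adjusted p = 0.079). Cntn2, Neurod2 and Sox11, which mark young neurons, differed by -1.59 ± 0.59, -1.27 ± 0.51 and -1.24 ± 0.59 (adjusted p = 0.169, 0.207 and 0.303). The list thus held values of both signs.

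Transcripts of other cells can enter a sorted pool. The summed linear level of the astrocyte and progenitor list was 5379 to 6409 on the E16.5 arrays and 5998 to 7315 on the P0 arrays, so the groups overlapped. That of the oligodendrocyte list was 2289 to 2525 and 3813 to 4671, without overlap, and that of the neuronal list 7252 to 7721 and 5986 to 11710. On E18.5 replicate 2 the genes Olig1, Aldoc, Kif1a and Eef1a2 were higher than on any other E16.5, E18.5 or P0 array, at 11.39, 10.29, 13.02 and 9.37. The same held for Trim9, Ndrg2, Ttyh1, Mmd2, Ncald, Camk2n2, Bcas1 and Scd1. Of the 12 largest rises only Slpi did not peak on that array. Among markers of these cells Olig2, Gpr17, Mog and Mobp of oligodendrocytes, Slc1a2, S100b, Sox2, Pax6, Hes5 and Sparcl1 of astrocytes and progenitors, and Tubb3, Snap25, Neurod1, Neurod6, Nefl and Slc17a7 of neurons did not pass the detection filter. A larger share of other cells and more RNA per cell cannot be told apart in such pools, and the part of other cells in these rises was not tested.

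**Figure D3:**
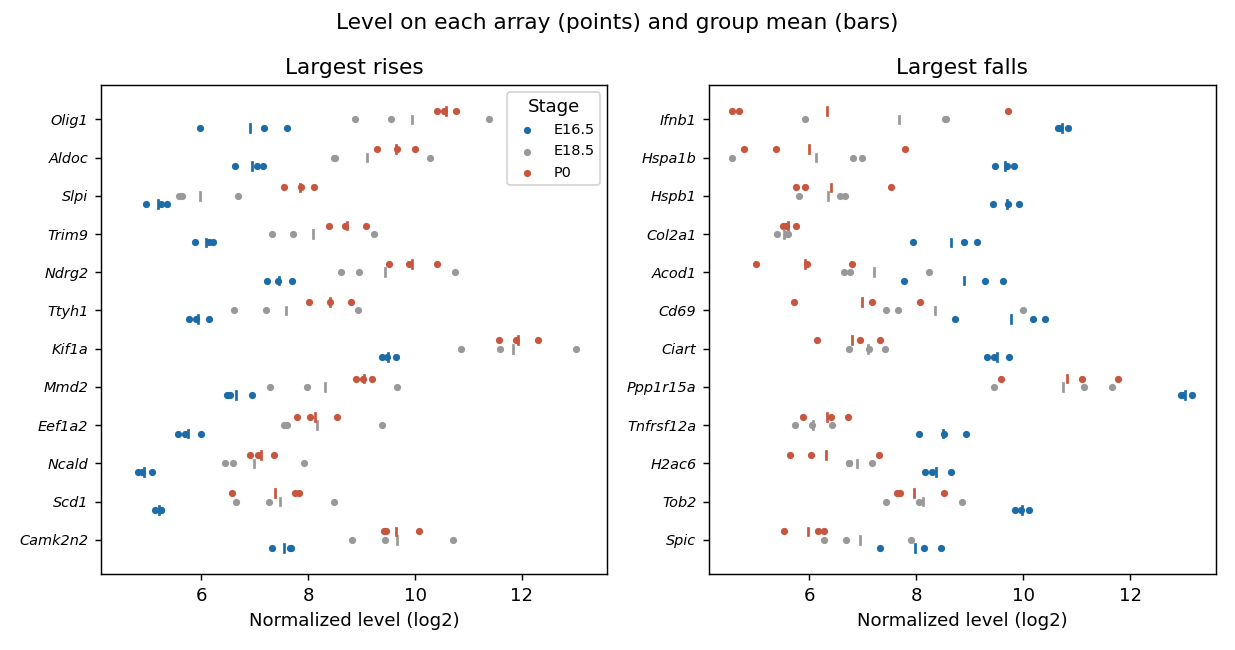
Level (log2) on each array of E16.5 (blue), E18.5 (grey) and P0 (red) for the 12 top genes among those that rose and the 12 among those that fell, with short vertical bars at the group means. Genes were picked with groups that did not overlap, so the P0 points lie on 1 side of the E16.5 points in each. Ifnb1 at P0 runs from 4.56 to 9.73.

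Other genes rose that belong to no glial or neuronal list. Slpi, a secreted inhibitor of neutrophil proteases, had levels of 5.25, 5.36 and 4.97 at E16.5, where it was not above background, and of 7.55, 8.11 and 7.87 at P0, at least 3.98-fold higher (adjusted p = 0.00521). Scd1, the desaturase that makes monounsaturated fatty acids, was likewise below background at E16.5 and was at least 2.90-fold higher at P0 (adjusted p = 0.00705). Its P0 levels of 7.75, 6.58 and 7.83 lay above the 5.13 to 5.25 of the E16.5 arrays. On E18.5 replicate 2, where most of the largest rises peaked, Scd1 was higher still, at 8.48. Both calls held without each array.

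A few genes rose from E18.5 to P0. Cirbp, an RNA-binding protein induced by mild cold, stood at 8.06, 8.33 and 7.82 at E16.5, at 8.05, 7.92 and 7.94 at E18.5 and at 9.26, 9.56 and 9.93 at P0. It rose by 1.51 ± 0.19 (adjusted p = 0.000335), and from E18.5 to P0 by 1.61 (adjusted p = 0.000477). The P0 arrays lay above all 6 earlier ones. Il20rb, a chain of the interleukin-20 receptor family, Qk, an RNA-binding protein known from glia, Cfl1, which severs actin filaments, and Atp5k, a subunit of ATP synthase, were the other 4 genes that rose from E18.5 to P0, where 0.047% of genes did. From E16.5 to P0 Il20rb rose by 1.40 ± 0.25, Qk by 0.92 ± 0.18 and Cfl1 by 0.98 ± 0.20, and Atp5k, below background at E16.5, was at least 1.76-fold higher. The other kept probe of Atp5k differed by 0.19. The calls of Il20rb, Qk, Cfl1 and Atp5k from E18.5 to P0 were lost in 7, 5, 9 and 13 of 16 alternatives, those of all 4 without E18.5 replicates 1 and 3 and without P0 replicate 3, those of Il20rb, Cfl1 and Atp5k also without E18.5 replicate 2 and P0 replicate 2. That of Cirbp was lost in 1, the fit of the 9 arrays. From E16.5 to P0 the calls of Cfl1 and Atp5k were lost without P0 replicate 2 (adjusted p = 0.0833 and 0.144) and without E16.5 replicates 1 and 2. On the list of 37 measured splicing factors and cold-inducible RNA binders 2 genes rose, against 1.74% of all genes. They were Cirbp and Srsf6 (0.46 ± 0.10, adjusted p = 0.0208), and the median of the list was 0.09. The other kept probe of Srsf6 differed by -0.00309, and the call of Srsf6 was lost without E16.5 replicates 2 and 3 and without P0 replicates 2 and 3 (adjusted p up to 0.11).

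Ifnb1, Hspa1b and Hspb1 had the largest falls. Ifnb1, the interferon beta gene, stood at 10.85, 10.69 and 10.66 at E16.5 and at 4.69, 4.56 and 9.73 at P0. P0 replicates 1 and 2 were not above background, whereas replicate 3 was, and it lay below the E16.5 arrays by less than the other P0 arrays did. Ifnb1 fell by 4.41 ± 1.06 (adjusted p = 0.0298), a call that was lost without any 1 array other than P0 replicate 3, up to an adjusted p of 0.171 without P0 replicate 2. Hspa1b, an inducible chaperone of the HSP70 family, had levels of 9.70, 9.48 and 9.83 at E16.5 and of 5.38, 4.79 and 7.79 at P0, where it was above background on 1 of 3 arrays, and fell by 3.68 ± 0.84 (adjusted p = 0.0222), a call that was also lost without any 1 array other than P0 replicate 3 (adjusted p up to 0.137). Here again replicate 3 was the highest P0 array. Hspb1, the small chaperone HSP27, stood at 9.93, 9.44 and 9.71 at E16.5 and at 5.91, 5.76 and 7.53 at P0. It fell by 3.29 ± 0.54 (adjusted p = 0.0028) and was called without each array in turn.

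Hspa1a, a near-identical copy of Hspa1b, differed by -4.11 ± 1.26 (adjusted p = 0.0866), with levels of 13.90, 13.70 and 13.71 at E16.5 and of 9.38, 7.32 and 12.27 at P0. The groups did not overlap, and the probes of the 2 copies may not tell them apart. Of 19 measured heat shock genes 2 fell, against 0.988% of all genes, and none rose. The change was negative in 18 of the 19, with a median of -0.36, and the groups did not overlap for 12, against 25.7% of all genes (10.8% with P0 below). The summed level of the list was 78630 to 85230 at E16.5, 61720 to 64800 at E18.5 and 57730 to 60220 at P0. From E16.5 to E18.5, between tissues that were digested alike, Hspb1 fell by 3.34 (adjusted p = 0.00209) and Hspa1b fell by 3.55 (adjusted p = 0.0318).

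The stretches upstream of the transcription start of Hspa1b and Hspb1 are shown because chaperone genes are known to be switched on through heat shock elements, inverted repeats of GAA and TTC. The 250 bases before the RefSeq start (mouse build GRCm38.p6) follow 5′ to 3′ along the strand of the gene, with each match to GAANNTTC in capitals. The window of Hspa1b is chr17:34959239-34959488 on the minus strand and that of Hspb1 is chr5:135887669-135887918 on the plus strand.
Hspa1b: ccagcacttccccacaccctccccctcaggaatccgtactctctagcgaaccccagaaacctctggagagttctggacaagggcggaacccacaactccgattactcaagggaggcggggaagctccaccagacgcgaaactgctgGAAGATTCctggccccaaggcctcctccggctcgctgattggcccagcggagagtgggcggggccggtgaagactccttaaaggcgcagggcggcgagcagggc
Hspb1: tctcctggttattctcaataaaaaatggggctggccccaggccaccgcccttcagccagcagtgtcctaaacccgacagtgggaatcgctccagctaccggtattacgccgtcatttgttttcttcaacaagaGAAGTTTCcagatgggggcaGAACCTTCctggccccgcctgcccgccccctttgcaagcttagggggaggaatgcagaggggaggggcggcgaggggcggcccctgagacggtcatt
GAANNTTC reads the same on both strands. It occurred 1 time in the window of Hspa1b, 2 times in that of Hspb1 and in 6.69% of 32851 promoter windows of the same 250 bases. Hspa1a and Hspa1b share 247 of their 250 bases. The motif was chosen after the values were seen, and a match is a description of the sequence and not a measured site.

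The window of Ifnb1 is chr4:88522795-88523044 on the minus strand, shown because interferon beta is known to be switched on through a site for NF-kB just upstream. Capitals mark GGAAATTCC, searched on both strands.
Ifnb1: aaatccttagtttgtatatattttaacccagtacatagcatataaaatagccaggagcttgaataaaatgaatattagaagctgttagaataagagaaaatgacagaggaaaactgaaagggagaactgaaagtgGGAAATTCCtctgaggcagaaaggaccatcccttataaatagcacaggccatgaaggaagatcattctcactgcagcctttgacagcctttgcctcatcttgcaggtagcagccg
These letters occurred in 0.286% of the promoter windows. The motif was chosen after the values were seen and from what is known of this gene, so the match is only a description of the sequence.

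Few immediate early genes and cytokines passed the test. Of 21 measured immediate early genes 1 fell (0.988% of all genes did) and none rose, with a median change of -0.63 and 16 members negative. The gene that fell was Jun, a subunit of the transcription factor AP-1, with levels of 12.12, 11.76 and 11.96 at E16.5 and of 11.30, 10.83 and 11.06 at P0. Its groups did not overlap, the change was -0.88 ± 0.23 (adjusted p = 0.0432), and the call was lost in 5 of the 6 fits without an array, with adjusted p up to 0.2 without P0 replicate 2. Fosb, another AP-1 subunit, differed by -1.49 ± 0.80 (adjusted p = 0.374) and Fos itself by -0.26 ± 0.38 (adjusted p = 0.823). Of 32 measured chemokines and cytokines none was called by limma, and at an unadjusted p under 0.05 there were 1 higher and 4 lower. The median of that list was -0.63, with 27 members negative. Its summed level was 226100 to 235300 at E16.5 and 112100 to 200700 at P0. Without P0 replicate 3, where 198 of all genes fell, 3 chemokines and cytokines fell.

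Further genes among the largest falls belong to none of these lists. Acod1, the enzyme that makes itaconate in activated macrophages, had levels of 7.77, 9.62 and 9.29 at E16.5 and of 5.95, 5.00 and 6.81 at P0 and fell by 2.97 ± 0.52 (adjusted p = 0.00499). Cd69, an early activation antigen of leukocytes, fell by 2.79 ± 0.65 (adjusted p = 0.0255), and its call did not hold without E16.5 replicates 2 and 3 and without P0 replicate 2 (adjusted p = 0.162). Ppp1r15a, a phosphatase subunit of the integrated stress response, fell by 2.20 ± 0.54 (adjusted p = 0.0302), lost without any E16.5 array and without P0 replicate 2 (adjusted p = 0.195). Tnfrsf12a, the receptor of the cytokine TWEAK, fell by 2.16 ± 0.37 (adjusted p = 0.00433), and Tob2, an antiproliferative protein, by 2.02 ± 0.34 (adjusted p = 0.00329). The other 2 kept probes of Tob2 differed by -2.22 and -0.12. H2ac6, a replication-dependent histone H2A, fell by 2.05 ± 0.42 (adjusted p = 0.0112), lost without E16.5 replicate 1 and without P0 replicate 2 (adjusted p = 0.0823). By the rule of choice none of these 6 genes had overlapping groups.

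On the E14.5 arrays levels ran from 4.63 to 5.33 for Ifnb1, from 5.67 to 6.33 for Hspb1 and from 4.59 to 5.09 for Acod1. On the adult arrays Hspb1 was high again, at 10.40 to 11.77, and Ifnb1 was at 4.66 to 7.38. For Ifnb1, Hspb1 and Acod1 the E16.5 arrays thus lay above the arrays of both E14.5 and P0.

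Circadian genes gave 2 of the falls. Ciart, a repressor of the CLOCK and BMAL1 activators, stood at 9.74, 9.46 and 9.33 at E16.5 and at 6.96, 6.14 and 7.32 at P0, with no overlap. It fell by 2.71 ± 0.37 (adjusted p = 0.000582) and kept its call without each array, and its other 2 kept probes differed by -2.76 and -2.32. Nr1d1, which encodes the clock repressor REV-ERB alpha, had levels of 6.80, 6.28 and 6.18 at E16.5 and was not above background at P0. It was at least 1.54-fold higher at E16.5 (adjusted p = 0.00706), and its call was lost without E16.5 replicate 1 (adjusted p = 0.0522). Per1, a core clock gene, differed by -0.32 ± 0.46 (adjusted p = 0.815) and by -1.80 and -0.30 with its other 2 kept probes, and Dbp, an output gene of the clock, by 0.72 ± 0.26 (adjusted p = 0.154). Of 15 measured clock genes 2 fell (0.988% of all genes did) and none rose, with a median of -0.06. The hour of collection is not given in the sources used here.

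Clock activators bind the E-box CACGTG, so the upstream window of Ciart is shown with this motif in capitals (chr3:95882229-95882478, minus strand, GRCm38.p6).
Ciart: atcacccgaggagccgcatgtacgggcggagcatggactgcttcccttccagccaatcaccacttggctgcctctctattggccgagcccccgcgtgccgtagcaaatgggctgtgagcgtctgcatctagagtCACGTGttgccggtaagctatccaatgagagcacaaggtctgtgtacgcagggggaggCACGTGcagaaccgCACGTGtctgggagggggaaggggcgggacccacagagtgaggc
The palindrome occurred 3 times in this window, in 6.02% of all promoter windows, and not in the window of Nr1d1. This motif too was chosen after the values were seen.

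Falls also included transcription factors of other macrophages and genes of fetal tissue. Spic, a factor of iron-recycling macrophages of the spleen, had levels of 7.32, 8.46 and 8.14 at E16.5 and of 6.27, 6.16 and 5.53 at P0. The groups did not overlap, and Spic fell by 1.99 ± 0.41 (adjusted p = 0.0112), which was lost without E16.5 replicate 2 (adjusted p = 0.0673). Pparg, the lipid-sensing receptor of alveolar macrophages, fell by 0.97 ± 0.21 (adjusted p = 0.0167), and Nr1h3, the oxysterol receptor LXR alpha, by 1.03 ± 0.25 (adjusted p = 0.0301). Both calls were lost without E16.5 replicates 2 and 3 and without P0 replicate 2 (adjusted p up to 0.0999 for Pparg and 0.164 for Nr1h3). Of 26 measured macrophage transcription factors 2 fell, Pparg and Nr1h3, against 0.988% of all genes, and none rose. The median of the list was -0.27.

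Col2a1, the collagen of cartilage, stood at 7.94, 9.14 and 8.90 at E16.5 and below background at P0, at least 7.23-fold higher at E16.5 (adjusted p = 0.000786). It was below background on the E18.5 arrays too. Igf2bp1, an RNA-binding protein of fetal tissues, had levels of 7.89, 8.48 and 7.85 at E16.5 and of 5.6 to 6.78 at P0, and it fell by 1.74 ± 0.32 (adjusted p = 0.00536). Its other 3 kept probes differed by -1.30 to -1.08. Plxna2, a semaphorin receptor that was above background on 1 of 3 P0 arrays, fell by 0.91 ± 0.19 (adjusted p = 0.0149), and its E18.5 levels of 7.02, 6.94 and 6.43 lay on both sides of the E16.5 values of 6.80, 6.70 and 6.88. The calls of Col2a1 and Igf2bp1 held without each array, and that of Plxna2 was lost without P0 replicate 2 (adjusted p = 0.0833), P0 replicate 1 and E16.5 replicates 1 and 3. Igf2bp1 was the 1 call among 21 fetal and IGF genes and Plxna2 the 1 call among 19 guidance genes, against 2.73% of all genes.

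**Figure D4:**
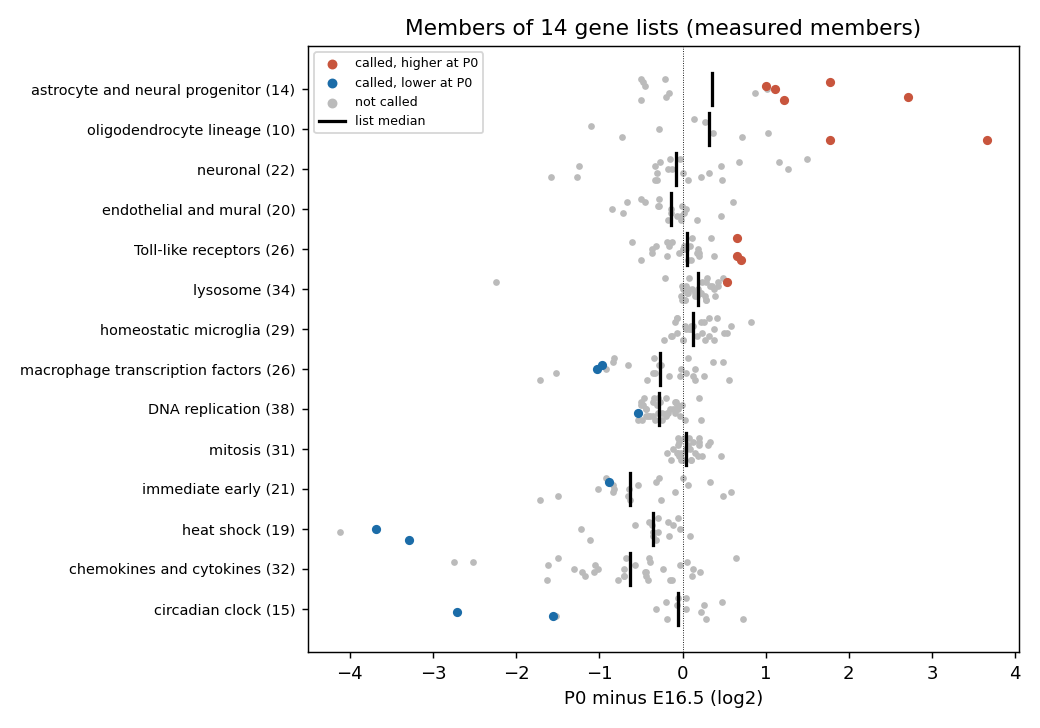
Change (P0 minus E16.5, log2) of the measured members of 14 gene lists, with members that rose in red, members that fell in blue, members not called in grey and the list median as a black bar. Called members sit on the right for the astrocyte, oligodendrocyte and Toll-like receptor lists and on the left for the heat shock and circadian lists, and medians run from -0.63 to 0.36.

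Of the Toll-like receptors, Tlr7, Tlr6 and Tlr13 rose. Tlr7, the endosomal receptor of single-stranded RNA, stood at 12.20, 12.19 and 12.05 at E16.5 and at 12.98, 12.57 and 13.02 at P0, a rise of 0.71 ± 0.11 (adjusted p = 0.00261). Tlr6, which senses lipoproteins together with Tlr2, rose from 10.07, 9.99 and 10.14 to 10.59, 10.86 and 10.73, a change of 0.66 ± 0.12 (adjusted p = 0.00536). Tlr13, a receptor of bacterial ribosomal RNA in mice, rose by 0.65 ± 0.14 (adjusted p = 0.0172). The groups did not overlap in the 3 genes, the spread within each group was small, and the calls of Tlr7 and Tlr6 held without each array. The call of Tlr13 was lost without E16.5 replicates 1 and 2 (adjusted p = 0.0784 without the latter) and without P0 replicate 1. They were 3 of 26 measured members of the list (11.5%, against 1.74% of all genes), none fell, and the median was 0.06.

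Smaller rises fell on single members of other immune and phagocytic lists. Irf9, a transcription factor of the interferon response, rose by 0.70 ± 0.15 (adjusted p = 0.0174). It was the only call among 35 interferon-stimulated genes, against 2.73% of all genes. Mfge8, which bridges dying cells to phagocytes, rose by 1.02 ± 0.25 (adjusted p = 0.0333), and Gusb, a lysosomal glucuronidase, by 0.53 ± 0.11 (adjusted p = 0.0108). P2ry6, a UDP receptor of phagocytosis, rose by 0.45 ± 0.12 (adjusted p = 0.0459). These 4 calls were lost without P0 replicate 2 and without E16.5 replicate 1, with adjusted p of up to 0.241. Those of Irf9, Mfge8 and P2ry6 were also lost without E16.5 replicate 2, those of Mfge8 and P2ry6 without E16.5 replicate 3, those of Irf9 and P2ry6 without P0 replicate 1, and that of Mfge8 without P0 replicate 3. The lysosome list had a median of 0.18 and 29 of 34 members positive, and its summed level was 392100 to 409800 at E16.5 and 460900 to 483300 at P0, without overlap.

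Other single calls went down. Cybb, the catalytic subunit of the phagocyte NADPH oxidase, and Clec4e, the receptor Mincle, were below background at P0 and at least 1.81-fold and 1.33-fold higher at E16.5 (adjusted p = 0.0308 and 0.0149). Gclm, a subunit of the enzyme that starts glutathione synthesis, fell by 0.73 ± 0.17 (adjusted p = 0.0259). The call of Clec4e was lost without P0 replicate 2 (adjusted p = 0.0621). Clec4e passed the filter only through the 3 E16.5 arrays, where it was high, so only 3 of the 6 fits without an array could test it. The calls of Cybb and Gclm were lost in 5 of the 6 fits without an array (adjusted p up to 0.165 and 0.0943).

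Metabolic and glucocorticoid lists held 1 call in each direction, where 1.74% of all genes rose and 0.988% fell. Ankrd37, a gene induced by low oxygen, was level at 7.80 to 7.98 at E16.5 and at 7.92 to 8.24 at E18.5 and stood at 7.11, 6.26 and 6.12 at P0. It fell by 1.40 ± 0.27 (adjusted p = 0.00705) and was called without each array. It was also the only gene that fell from E18.5 to P0 (0.00941% of genes), by 1.57, a call that was lost in 7 of 16 alternatives, among them without any 1 E18.5 array and without P0 replicates 2 and 3. Uqcrq, a subunit of respiratory complex III, fell by 1.51 ± 0.37 (adjusted p = 0.0298), lost without P0 replicate 2 (adjusted p = 0.135), P0 replicate 1 and E16.5 replicates 1 and 2. Besides these, 1 member rose in each of the lists of 27 glycolysis and hypoxia genes (Aldoc) and 51 respiratory chain genes (Atp5k). Fkbp5, a chaperone partner of the glucocorticoid receptor, rose by 0.94 ± 0.25 (adjusted p = 0.0488) with P0 levels of 10.07, 9.44 and 11.11, and Errfi1, a feedback inhibitor of the EGF receptor, fell by 0.81 ± 0.16 (adjusted p = 0.00959). Without P0 replicate 3, the highest array, the change of Fkbp5 was 0.49 (adjusted p = 0.137), and of the 6 fits without an array only the 1 without P0 replicate 2 kept its call. The call of Errfi1 was lost without E16.5 replicate 1 (adjusted p = 0.0669) and without P0 replicate 2.

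The identity genes of microglia gave no call. Of 29 measured homeostatic genes none passed the test in limma, with 5 higher and none lower at an unadjusted p under 0.05, and the median was 0.12 with 22 members positive. P2ry12, a purinergic receptor, stood at 12.58, 12.40 and 12.61 at E16.5 and at 12.59, 12.75 and 12.28 at P0, a difference of 0.01 ± 0.17 (adjusted p = 0.993). Tmem119 differed by -0.09 ± 0.30 (adjusted p = 0.939) and Sall1, a transcription factor that marks microglia, by 0.22 ± 0.24 (adjusted p = 0.738). The groups overlapped in all 3 genes. Cx3cr1, the fractalkine receptor, had P0 levels of 15.35, 15.67 and 14.33 against 14.08 to 14.46 at E16.5 and differed by 0.83 ± 0.37 (adjusted p = 0.261).

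Of 38 measured DNA replication genes 1 fell (0.988% of all genes did) and none rose, 11 were lower and 0 higher at an unadjusted p under 0.05, the groups did not overlap for 20 (25.7% of all genes), 35 were negative, and the median was -0.28, against 0.02 for all genes. The gene that fell was Pold1, the catalytic subunit of DNA polymerase delta, with levels of 10.88, 10.97 and 11.10 at E16.5 and of 10.61, 10.51 and 10.25 at P0 and a change of -0.53 ± 0.13 (adjusted p = 0.0343). Its call was lost without any E16.5 array and without P0 replicates 2 and 3, with adjusted p up to 0.129. Mcm2 and Mcm5, subunits of the replicative helicase, differed by -0.42 ± 0.13 (adjusted p = 0.0936) and -0.31 ± 0.12 (adjusted p = 0.193). Of 31 mitotic genes none was called by limma, 1 was higher and none lower at an unadjusted p under 0.05, and the median was 0.04. Of 40 ribosomal protein genes only Rpl13a was called, against 2.73% of all genes. Its change was -0.56 ± 0.15 (adjusted p = 0.0415), a call that was lost without P0 replicate 2 (adjusted p = 0.241) and without any E16.5 array.

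Lists of TGF-beta signalling, G1 cyclins, complement, chemoattractant receptors, MHC, integrins, fatty acid oxidation, cholesterol synthesis, proteasome and chromatin genes held no call in limma. At an unadjusted p under 0.05 they held between 1 and 6 members per list and direction, or none. Cholesterol synthesis genes had a median of 0.30, with 15 of 17 positive, 6 higher and 1 lower at an unadjusted p under 0.05. Border macrophage, monocyte and neutrophil, lymphoid and mast cell, erythroid and endothelial genes also held no call, with medians of -0.05, 0.16, -0.07, -0.15 and -0.14, and at an unadjusted p under 0.05 with 2 endothelial genes lower and no other member. The border macrophage genes differed between arrays of 1 group, with summed levels of 187300 to 214200 at E16.5, of 160100, 157200 and 288600 at E18.5 and of 253600, 228800 and 118500 at P0. Their median change was -0.34 without P0 replicate 1, 0.42 without P0 replicate 3 and 0.07 without E16.5 replicate 3, and their part in the other results was not tested. The summed level of erythroid genes was 38810 to 58190 at E16.5 and 8918 to 40130 at P0. Mpo, a granule enzyme of myeloid precursors, was above background on P0 replicate 1 alone among the 6 arrays, at 7.87.

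Setting E18.5 beside both groups divides the change at the last days of gestation. The comparisons share arrays, so their counts are given side by side. From E16.5 to E18.5, 146 genes rose (1.37%) and 101 fell (0.95%), 2.32% in all. From E18.5 to P0, 5 rose and 1 fell, 0.0564% in all, with 568 genes at an unadjusted p under 0.05. Arrays of E18.5 correlated with each other at r = 0.964 to 0.987 and with arrays of P0 over the same range. The few calls of this step therefore do not show that little changed after E18.5. The median level of the 185 genes that rose to P0 was 8.119 to 8.128 on the E16.5 arrays, 8.606 to 9.026 on the E18.5 arrays and 8.94 to 9.138 on the P0 arrays. That of the 105 genes that fell was 8.897 to 9.137, 7.975 to 8.24 and 7.558 to 8.034. Both sets were chosen on these E16.5 and P0 arrays, so their medians are a description.

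A contrast of E18.5 against the mean of E16.5 and P0 asks whether the steps before and after E18.5 differed, and it called 1 gene higher (0.00941%) and 2 lower (0.0188%), 0.0282% in all. Kat6a, a histone acetyltransferase, was at 6.88, 6.42 and 6.10 at E16.5, at 8.56, 8.70 and 8.66 at E18.5 and at 7.30, 8.44 and 7.21 at P0, and exceeded the mean of its neighbours by 1.58 ± 0.27 (adjusted p = 0.0416). Gadd45a, a gene induced by DNA damage and stress, was at 9.18, 8.57 and 8.63 at E16.5, at 6.83, 6.80 and 5.92 at E18.5 and at 7.19, 7.11 and 7.87 at P0, and lay below that mean by -1.57 ± 0.27 (adjusted p = 0.0416). Tesmin, a metallothionein-like gene of testis, was detected, of these 9 arrays, on the 3 of E16.5 alone, at 6.02 to 7.17, and its contrast was -1.18 ± 0.20 (adjusted p = 0.0416). Its step from E18.5 to P0 was thus not measured, and the contrast was not called without background correction, with 75th percentile scaling and with the authors' table. From E16.5 to P0 Kat6a rose by 1.18 ± 0.31 (adjusted p = 0.0436) and Gadd45a fell by 1.40 ± 0.31 (adjusted p = 0.018), calls that were lost without P0 replicate 2 (adjusted p = 0.264 and 0.105) and without E16.5 replicate 1, that of Kat6a also without E16.5 replicates 2 and 3 and that of Gadd45a without P0 replicate 1. For Kat6a and Gadd45a the E18.5 arrays lay outside the range of both other groups.

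The adult and E14.5 arrays are not part of the comparison and show what the called genes did over a longer span. Of the 185 genes that rose to P0, 66 were higher (35.7%) and 46 lower (24.9%) in adults than at E14.5, against 24.8% and 30.6% of all genes. Of the 105 genes that fell, 35 were higher (33.3%) and 37 lower (35.2%). Kif1a was at 10.16 to 11.15 at E14.5 and at 5.27 to 5.46 in adults, Olig1 at 6.61 to 7.55 and at 4.99 to 5.63, whereas Slc1a3 was at 7.87 to 9.22 and at 13.04 to 13.30. Tlr7, Tlr6 and Tlr13 were higher in adults than at E14.5 by 1.10, 0.72 and 1.47.

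Of 18 measured genes on a list drawn from the study's text, 2 fell (Jun and Plxna2, against 0.988% of all genes) and none rose. The list does not hold every gene that the study names. Ifnb1, which fell, is also named there and is not on the list. Ccrl2, Atf3, Cd83 and Cxcr4, all tied to activation or migration, had P0 groups below E16.5 without overlap and were not called, with changes of -1.85 ± 1.42, -1.71 ± 1.02, -1.06 ± 0.62 and -1.94 ± 0.73 (adjusted p = 0.582, 0.437, 0.427 and 0.17). Their P0 arrays were far apart, from 9.04 to 13.21 for Ccrl2 and from 6.73 to 8.95 for Cxcr4, and replicate 2 was the lowest for each. Fosb on the same list also had P0 below E16.5 without overlap and was not called (-1.49 ± 0.80, adjusted p = 0.374). Its lowest P0 array was replicate 3, at 9.91. Over all genes, 10.8% had P0 below E16.5 without overlap. Klf9, a factor that responds to glucocorticoids and thyroid hormone, had P0 levels of 7.72, 6.91 and 8.77 against 6.21 to 6.83 at E16.5, a difference of 1.28 ± 0.41 (adjusted p = 0.11). Igf1, Irf8 and Gpr34 differed by 0.02 ± 0.22, 0.05 ± 0.17 and 0.54 ± 0.20 (adjusted p = 0.987, 0.951 and 0.167), and their groups overlapped.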

How the data were processed

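Expression was measured on Illumina mouse BeadChips in 28 samples of 8 groups, of which 3 adult columns repeated others exactly and were left out. The authors deposited bead summary intensity values without normalization, read in GenomeStudio, with a detection p-value for each probe, and a quantile-normalized intensity table made with lumi (the sources used here give no tool versions). From the deposited intensities log2 values were computed with neqc of limma 3.58.1 (R 4.3.3), which corrects the background through the detection p-values, adds an offset of 16 and applies quantile normalization. The filter required detection (p under 0.01) on 3 or more arrays and left 19789 of 45281 probes, 16741 of them with 1 gene symbol. A gene measured by several probes was represented by its brightest probe on average, for 10630 genes in all. A model of group means over 25 arrays (17 residual degrees of freedom) was tested with eBayes and Benjamini-Hochberg adjustment. Column names gave the group but not which replicate of the labels, so columns were numbered within a group. The sources used here give no chip or scan batches.

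The genes named were the 12 largest rises and falls among called genes whose groups did not overlap, and up to 4 called members of each of 43 gene lists. Added to them were a list of genes drawn from the study's text, not all that it names, and the called genes of the E18.5 contrast. Further list members are given as values. The comparison, members and lists were chosen with earlier results of these data known. Promoter sequences came from RefSeq. Alternatives of background, normalization, filter, arrays, probe choice and test were run.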

Additional observations from a re-analysis of the deposited data

Results flagged for a closer look

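A test of whether the step from E16.5 to E18.5 differed from the step from E18.5 to P0 (limma, adjusted over all genes) called 3 genes. E18.5 lay above the mean of E16.5 and P0 by 1.58 ± 0.27 for Kat6a (adjusted p = 0.0416). It lay below that mean for Gadd45a, at -1.57 ± 0.27 (adjusted p = 0.0416), and for Tesmin, at -1.18 ± 0.20 (adjusted p = 0.0416). Each direction was shown by 3 of 3 E18.5 arrays. Tesmin was above background on no E18.5 or P0 array, so its step from E18.5 to P0 was not measured, and its call was lost in 3 of 4 alternatives. Those of Kat6a and Gadd45a held in the 4. These alternatives changed only background correction or normalization. No fit without an array and no other filter, probe choice or test was run for this contrast, so its stability to single arrays was not tested.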

How the results depend on the processing

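Of the 59 named genes called between E16.5 and P0, none reversed and none kept its call under every alternative run, and 33 lost it without at least 1 array. Over 1114 comparisons of such a gene with an alternative, 779 kept the call and 335 lost it. For P0 against E16.5, where 185 genes rose and 105 fell, 75th percentile scaling gave 97 and 68, and the fit of 9 arrays 17 and 22. The methods' test was 1 reading of the study's methods, which may differ from what the authors ran. It took Tukey p-values among the 8 groups and adjusted them by Benjamini-Hochberg over genes. Run on the values that the authors normalized, it gave 7 higher and 0 lower (273 and 174 at a Tukey p under 0.05 before adjustment over genes). Same-numbered arrays of the 2 groups correlated in their deviations at -0.217, 0.0476 and -0.298, so the numbers were not taken to pair the samples. With the replicate block 19 genes rose and 16 fell, against 143 and 100 with the same values and no block.

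For E18.5 against E16.5 (146 and 101), 75th percentile scaling gave 80 higher, no filter 93 and 63, the 9 arrays 42 and 43, and the methods' test 6 and 8. For P0 against E18.5 (5 and 1), no filter gave 3 higher, the 9 arrays 0 and 0 in limma (332 and 288 unadjusted), and the methods' test 1 and 0 (52 and 38 unadjusted). For E18.5 against the mean of its neighbours (1 and 2), the number higher was 3 without background correction, with normexp and with the authors' table and 2 with 75th percentile scaling, and the number lower 4 with normexp. With 1 array left out, genes that rose and fell numbered 56 to 151 and 36 to 198 for P0 against E16.5, 41 to 143 and 29 to 68 for E18.5 against E16.5, and 1 to 8 and 0 to 16 for P0 against E18.5. The cause was not tested.

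Of the 290 called genes at most 1, not named here, had the opposite sign under any 1 alternative. The named genes that changed sign were not called between E16.5 and P0: Tsc22d3 (-0.1714 to 0.8148 without 1 array, negative without P0 replicate 1), Ly86 with 75th percentile scaling (-0.009763), Irf8 (-0.0305 to 0.1686, negative without E16.5 replicate 1 or 3 or P0 replicate 2), Igf1 (-0.02829 to 0.1003, negative without E16.5 replicate 1 or 3 or P0 replicate 3), and E2f6 with the mean of its probes (0.080) and without E16.5 replicate 3 or P0 replicate 1 (-0.09221 to 0.09315 without 1 array). The small number of arrays limits the precision, and 41 called genes were above background on no E16.5 array and 12 on no P0 array.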
